A study of Mus musculus with 88 samples.

Results

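The genes described here encode the proteins of synaptic vesicles and of the SNARE machinery that fuses vesicles with their target membranes. They are the genes of the cortical CPM table, which gives each gene's reads relative to library size, with a mean of at least 1 CPM and a symbol of the synaptotagmin, synapsin, VAMP, syntaxin, SV2, SNAP, synaptophysin, complexin or syntaxin-binding families. The rule found 57 genes among the 14451 of the table, of which 14086 had a mean of at least 1 CPM. All 57 matching symbols passed this threshold. The lowest of them were *Syt15* with a mean of 1.25 CPM and *Vamp5* with a mean of 1.89 CPM, and no matching gene lay below it.

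By role they comprise 8 synaptotagmins taken as calcium binding, 8 other synaptotagmins, 8 intracellular syntaxins, 7 syntaxin-binding proteins, 6 R-SNAREs, 5 plasma membrane syntaxins, 4 proteins of the SNAP-25 family, 4 vesicle membrane proteins (*Sv2a*, *Sv2b*, *Sv2c* and *Syp*), 3 complexins, 3 synapsins and *Snap91*. *Snap91* is matched by name only, since it encodes the clathrin assembly protein AP180 and not a SNARE.

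RNA from the frontal cortex of 88 mice aged 6.5 months was sequenced, with 1 library per mouse. All mice carried human APOE3 or APOE4 in place of mouse *Apoe* on a C57BL/6 background, and the study compared the effect of *Trem2* deletion in both isoforms with and without amyloid. The mice named APP carried an amyloid transgene, human APP with the Swedish mutation, which the mouse prion promoter drives. Trem2ko mice were homozygous for a deletion allele of *Trem2*, the microglial lipid receptor. There were 14 APP/E4, 16 APP/E4/Trem2ko, 14 APP/E3, 14 APP/E3/Trem2ko, 6 E4, 8 E4/Trem2ko, 8 E3 and 8 E3/Trem2ko mice. Each genotype held as many females as males apart from E4, which had 4 and 2.

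A synaptic vesicle fuses when VAMP2 on the vesicle zips together with syntaxin-1A and SNAP-25 on the plasma membrane into a bundle of helices. Complexins bind the assembled bundle, and synaptotagmin-1 triggers fusion when calcium enters. Other SNAREs of the same families serve the endoplasmic reticulum, the Golgi and endosomes in every cell, so the gene set holds both neuronal and general transport genes.

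The recovered reads per library ranged over 41.3 to 95.5 M reads with a median of 49.8 M reads, so that 1 read is worth 0.0105 to 0.0242 CPM. By genotype, the median was 44.7 to 45.7 M reads in the APOE4 groups and 50.1 to 55.2 M reads in the APOE3 groups. Median depth thus went with isoform, and its part in the isoform comparisons was not tested. *Trem2* was between 1.12 and 4.65 CPM in the 46 Trem2ko mice and between 7.18 and 19.8 CPM in the 42 mice with wild-type *Trem2*, and these ranges did not overlap. Keratin reads, from genes of stratified epithelium and not of brain, reached at least 1 CPM in 31 of 44 APOE4 libraries and in 0 of 44 APOE3 libraries, whose highest value was 0.247 CPM. A score of 12 striatal neuron markers, the mean of their log2 values centred over all mice, ranged over -1.001 to 2.96 and was above 1 in 18 mice, so the level of striatal marker RNA varied between mice. *Ttr*, a choroid plexus gene, reached at least 100 CPM in 9 libraries, and *Alb*, a plasma protein gene, at least 50 CPM in 4. The 31 libraries at or above 1 CPM, called keratin libraries below, are all APOE4, and the effect of leaving them out is given with each comparison of APOE4 with APOE3.

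Per kilobase of exon, the most abundant members were *Cplx2* with 413 CPM per kb, *Syp* with 400, *Snap25* with 372, *Vamp2* with 348, *Cplx1* with 321, *Syn1* with 249, *Syt1* with 225 and *Syt11* with 204. Among the genes reported here these are neuronal release genes together with *Syt11*, whose protein lacks calcium-dependent membrane binding. *Syt15* with 0.242, *Syt14* with 0.400 and *Vamp5* with 0.699 CPM per kb were lowest. *Stx1a* had 110 CPM per kb.

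The promoters of the pair of complexins and of the 2 members with the smallest p in the APOE comparison below are shown because the complexins moved in opposite directions. Each runs from 250 bases before to 50 bases after the RefSeq start on GRCm38.p6, 5′ to 3′ on the strand of the gene, with the GC box GGGCGG or its reverse complement CCGCCC in capitals. *Cplx1* lies at chr5:108549978-108550277 on the minus strand, *Cplx2* at chr13:54302306-54302605 on the plus strand, *Stx18* at chr5:38038980-38039279 on the plus strand and *Syt11* at chr3:88772550-88772849 on the minus strand.
Cplx1 promoter: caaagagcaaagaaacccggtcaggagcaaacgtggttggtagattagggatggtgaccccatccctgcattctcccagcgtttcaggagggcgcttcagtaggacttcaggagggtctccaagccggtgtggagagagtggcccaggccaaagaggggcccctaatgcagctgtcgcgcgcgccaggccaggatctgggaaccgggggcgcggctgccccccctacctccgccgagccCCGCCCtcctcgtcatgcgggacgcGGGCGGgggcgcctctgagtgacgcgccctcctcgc
Cplx2 promoter: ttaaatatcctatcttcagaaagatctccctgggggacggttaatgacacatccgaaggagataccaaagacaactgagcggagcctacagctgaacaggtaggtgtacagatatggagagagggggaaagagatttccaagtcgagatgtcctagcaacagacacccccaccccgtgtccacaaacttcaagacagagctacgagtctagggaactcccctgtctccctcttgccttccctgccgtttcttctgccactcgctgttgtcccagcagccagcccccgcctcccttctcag
Stx18 promoter: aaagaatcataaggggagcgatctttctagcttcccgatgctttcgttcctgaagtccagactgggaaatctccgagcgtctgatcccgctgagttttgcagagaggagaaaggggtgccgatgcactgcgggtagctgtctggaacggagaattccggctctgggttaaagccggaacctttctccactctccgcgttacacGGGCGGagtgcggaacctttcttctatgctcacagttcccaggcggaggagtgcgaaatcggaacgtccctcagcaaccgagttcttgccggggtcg
Syt11 promoter: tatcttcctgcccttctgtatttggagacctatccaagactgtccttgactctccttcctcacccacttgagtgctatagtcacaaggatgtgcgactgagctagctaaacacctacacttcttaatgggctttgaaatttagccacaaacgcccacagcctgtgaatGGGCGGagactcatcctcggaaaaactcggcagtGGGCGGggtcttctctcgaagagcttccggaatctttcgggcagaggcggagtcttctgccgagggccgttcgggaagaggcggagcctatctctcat

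The *Cplx1* window held 2 GC boxes and 67% G and C, the *Cplx2* window none and 53.3%, the *Stx18* window 1 and 56% and the *Syt11* window 2 and 53%. RefSeq promoters were found for 45 of the 57 members, in 58 windows, of which 67.2% held a GC box on either strand, against 35.7% of all 32851 windows. The latter cover 27025 genes, more than the 14086 tested here, whereas every member passed the threshold of 1 CPM. A comparison with tested genes alone was not made. Among the windows of members called higher in APOE4, 6 of 7 held one, against 10 of 15 for members called lower and 23 of 36 for members not called. The motif CCAAT, on either strand, was in 31.0% of the member windows and 37.4% of all windows, and TATAAA in 6.90% and 13.6%. By call, CCAAT was in 0 of 7 windows of members called higher, 5 of 15 called lower and 13 of 36 not called. A motif match describes the letters of a window and not a bound site.

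The comparison of APOE4 with APOE3, averaged over the 4 backgrounds, asked which of these genes differ by isoform. On this average *Cplx2*, *Syt11* and several minor synaptotagmins were higher in APOE4 mice, and *Cplx1*, *Snap25*, *Stx1a* and most of the called SNAREs of internal membranes were lower. With limma and Benjamini-Hochberg adjustment over the 14086 genes, 9 members were called higher, where 12.6% of all genes were, and 15 were called lower, where 27.8% of all genes were. These shares of the members, 15.8% higher and 26.3% lower, are near those of all genes, and the median log2 change of the members was -0.03, the same as over all genes. The split between the directions depended on the scaling. With TMM scaling 13 members were called higher and 9 lower, with 19.9% of all genes called higher and 20.6% lower, and edgeR and DESeq2 on the recovered reads gave 13 higher and 9 lower as well. The shares of all genes called by edgeR and DESeq2 are not given here or in later comparisons. Counts from these tools are therefore not read as results about the members. In bulk RNA, fewer cells of a type and less RNA per cell cannot be told apart.

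**Figure D1:**
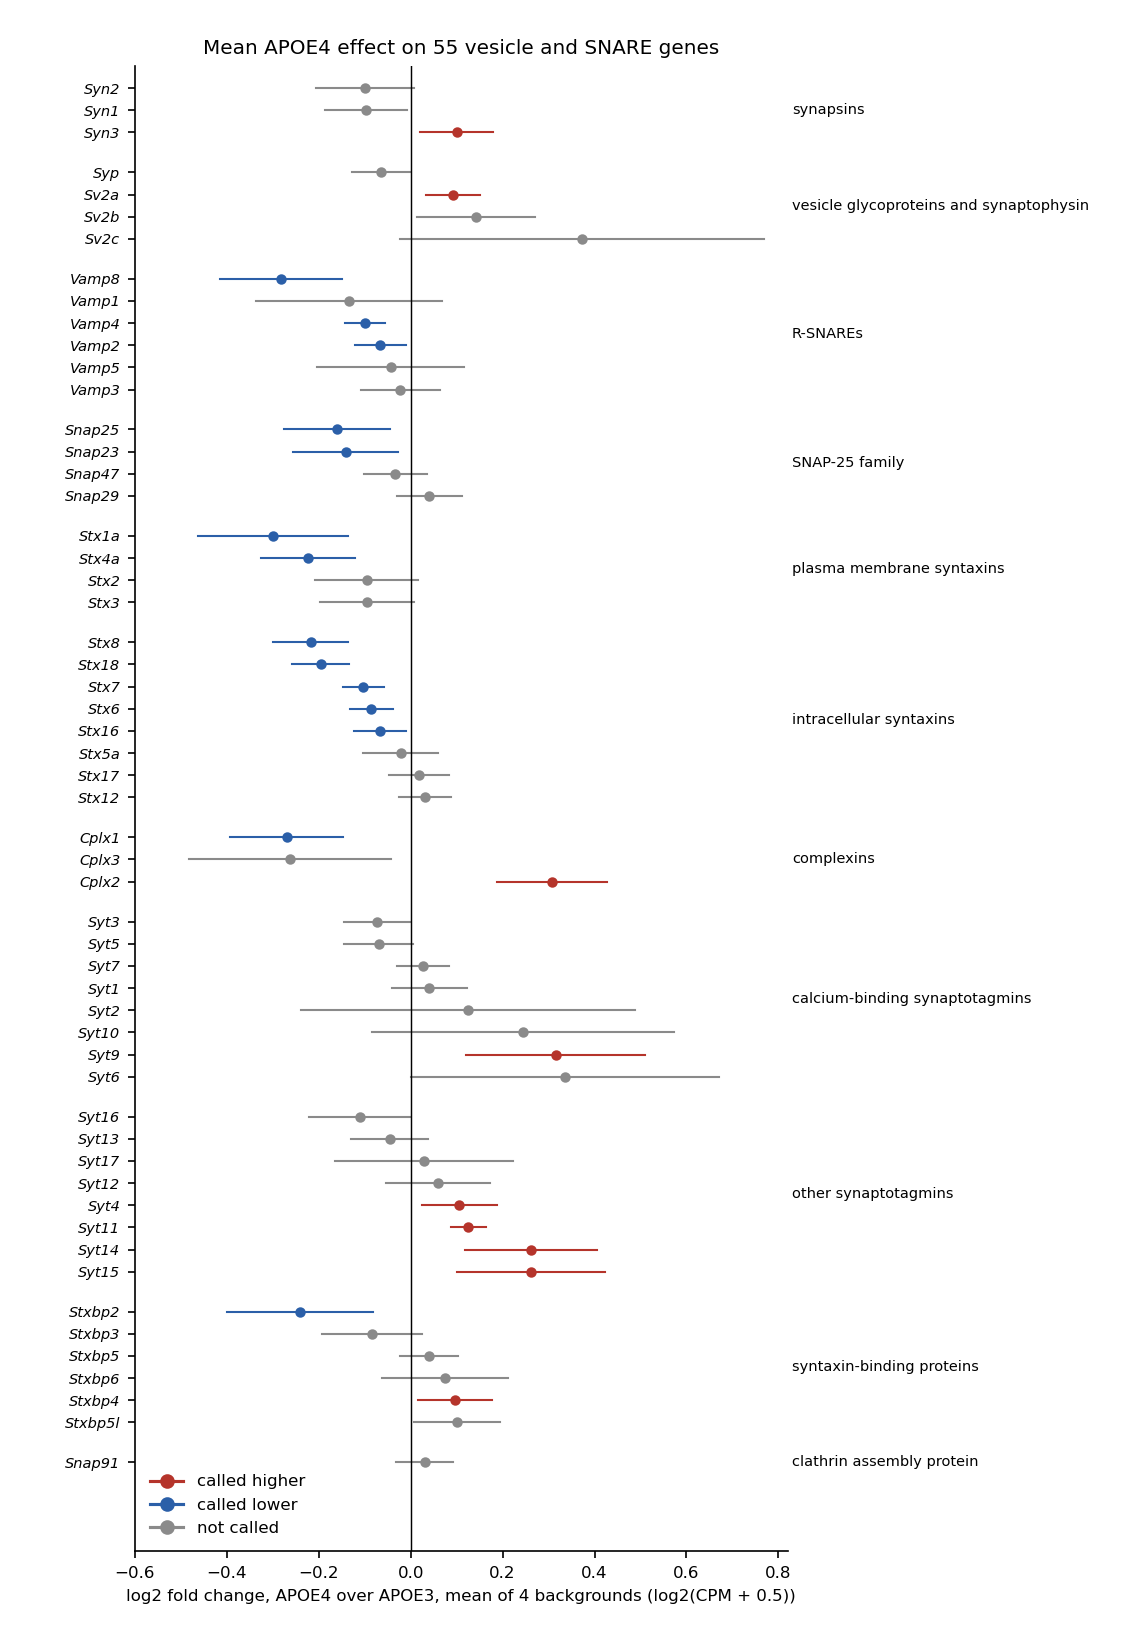
Average log2 fold change of APOE4 over APOE3 across the 4 backgrounds for 55 members, grouped by role, with 95% intervals (88 mice). The called members range over -0.30 for *Stx1a* to 0.32 for *Syt9*, all 5 called intracellular syntaxins lie left of 0 and the 4 called members among the other synaptotagmins lie right of 0.

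Without the 31 keratin libraries, which leaves 13 APOE4 mice, none of the 57 members was called in the averaged comparison, and all 24 called members kept their sign. *Syt11* was then 0.10, *Cplx2* 0.23, *Cplx1* -0.21 and *Stx18* -0.10 in log2. The part of the keratin libraries in the averaged result was not tested apart from this. The shares of all genes called without these libraries are not given here. This count and the later counts without them are therefore not read as results about the members.

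The complexins moved in opposite directions in APP/E4 against APP/E3 mice. *Cplx1*, a complexin of the adult brain, had 441, 515 and 690 CPM (lowest, median and highest) in APP/E4 mice, against 609, 806 and 1018 CPM in APP/E3 mice. All but 2 of the 14 APP/E4 mice lay below every APP/E3 mouse. Its log2 fold change was -0.64 (95% interval -0.85 to -0.44, limma adjusted p = 7.88e-07). *Cplx2*, its close paralogue, had 1925, 2369 and 3035 CPM in APP/E4 mice, against 1605, 1790 and 2819 CPM in APP/E3 mice. The groups overlapped, with 3 APP/E4 mice above all APP/E3 mice, and the log2 fold change was 0.33 (0.13 to 0.53, adjusted p = 0.00640). Without the keratin libraries it was 0.42 and not called (adjusted p = 0.0595), whereas *Cplx1* was -0.68 and still called (adjusted p = 0.00271).

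Set against each other within a library, where scaling plays no part, *Cplx2* over *Cplx1* per kb was 1.45, 1.95 and 2.90 in APP/E4 mice, against 0.786, 0.993 and 1.43 in APP/E3 mice, and the ranges did not overlap. This ratio was chosen after its parts were seen and carries no test. In the other backgrounds the ranges overlapped. The ratio was 0.650, 1.47 and 2.63 in APP/E4/Trem2ko against 0.736, 1.02 and 1.31 in APP/E3/Trem2ko mice. It was 0.940, 1.87 and 2.63 in E4 against 0.748, 1.13 and 2.38 in E3 mice. It was 0.934, 1.26 and 1.79 in E4/Trem2ko against 0.664, 0.833 and 2.54 in E3/Trem2ko mice. The medians were thus higher with APOE4 in each of the 4 backgrounds. Within APP/E4, the 4 mice below 1 CPM of keratin reads had 465, 496 and 602 CPM of *Cplx1*, inside the range of the other 10. The *Cplx1* call held in all 13 other settings and without any single mouse.

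**Figure D2:**
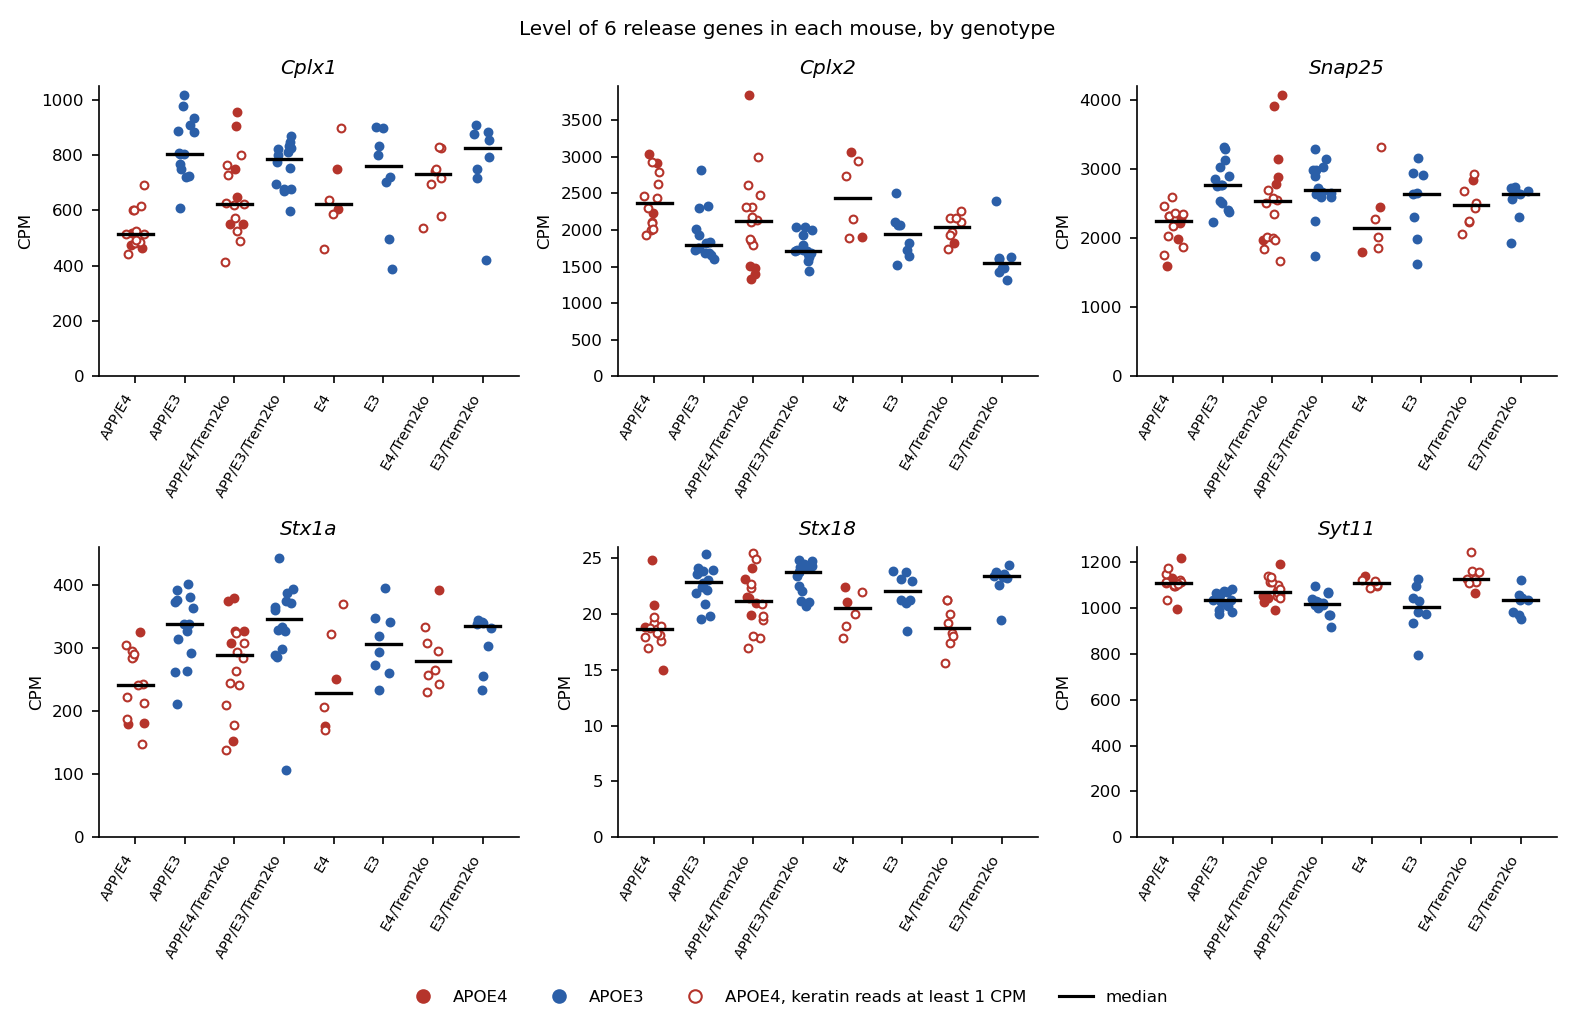
CPM of *Cplx1*, *Cplx2*, *Snap25*, *Stx1a*, *Stx18* and *Syt11* in each of the 88 mice by genotype, with a line at the median and open symbols for APOE4 mice with at least 1 CPM of keratin reads. Medians of *Cplx1* were 515 CPM in APP/E4 and 806 CPM in APP/E3 mice, and open and closed APP/E4 symbols overlap.

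In the direct comparison of APP/E4 with APP/E3, 8 members were called higher, where 10.9% of all genes were, and 12 lower, where 22.7% were. The members' median was -0.05, against -0.04 over all genes. TMM scaling gave 11 higher and 10 lower, where 15.9% and 17.6% of all genes were called, edgeR 12 and 9, and DESeq2 12 and 8. Without the keratin libraries, which leaves 4 APP/E4 mice, 2 were called higher and 7 lower. Calls of the pair that ended there, with their values and adjusted p without these libraries, include *Syt11* at 0.10 (0.192), *Stx8* at -0.21 (0.133), *Stx6* at -0.17 (0.0651), *Syt9* at 0.61 (0.0861), *Vamp8* at -0.15 (0.585), *Stxbp5l* at 0.20 (0.280), *Stxbp4* at 0.22 (0.178) and *Syt4* at 0.11 (0.435). The calls of *Snap25*, *Vamp2*, *Cplx1*, *Stx4a*, *Stx18*, *Syt10* and *Syt14* were kept. The lower calls there also include *Stx3* at -0.37 (adjusted p = 0.0306) and *Syn1* at -0.30 (adjusted p = 0.0493), which were not called with all libraries.

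Of the core SNAREs of release, *Snap25*, *Vamp2* and *Stx1a* were called lower in this pair. *Snap25*, the neuronal plasma membrane SNARE, had 1593, 2251 and 2597 CPM in APP/E4 mice, against 2233, 2766 and 3321 CPM in APP/E3 mice. Of the 14 APP/E4 mice, 7 were below all APP/E3 mice, and the log2 fold change was -0.36 (-0.55 to -0.17, adjusted p = 0.00235). *Vamp2*, the vesicle SNARE synaptobrevin-2, had 868, 1278 and 1424 CPM in APP/E4 mice, against 1347, 1444 and 1564 CPM in APP/E3 mice. Here 8 of 14 APP/E4 mice lay below every APP/E3 mouse, with a log2 fold change of -0.22 (adjusted p = 0.000151). *Stx1a*, the syntaxin that pairs with them, had 147, 242 and 325 CPM in APP/E4 mice, against 212, 338 and 401 CPM in APP/E3 mice. The ranges overlapped for all but 4 of the APP/E4 mice, and the log2 fold change was -0.46 (adjusted p = 0.00580). This call was lost with the length and GC correction and without the keratin libraries.

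*Syt1*, the calcium sensor of fast release, was not called at 0.02 (-0.11 to 0.16). *Syp*, the vesicle protein synaptophysin, was -0.11 (-0.21 to -0.00103, adjusted p = 0.113). *Syn1* at -0.15 (adjusted p = 0.119), *Syn2* at 0.02 and *Sv2a* at 0.08 did not pass the threshold either.

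Markers of cell classes were counted in the same pair, where 22.7% of all genes were called lower and 10.9% higher. Of 10 interneuron markers, 4 were called lower in APP/E4 mice and none higher, and their summed level was 988, 1169 and 1835 CPM in APP/E4 and 1302, 1446 and 2082 CPM in APP/E3 mice. Of 8 pan-neuronal markers 2 were called lower, with sums of 3202, 3651 and 4657 CPM in APP/E4 and 3389, 3976 and 4550 CPM in APP/E3 mice. Of 10 glutamatergic markers 1 was called higher and none lower, but their median log2 change was -0.17, with sums of 6817, 8663 and 10540 CPM in APP/E4 and 6558, 9995 and 10680 CPM in APP/E3 mice. Of 12 striatal markers none was called. The part of these cell classes in the values of *Cplx1*, *Snap25* and *Vamp2* was not tested.

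SNAREs of the early secretory pathway and of endosomes formed the other lower group. *Stx18*, a syntaxin of the endoplasmic reticulum, had 14.99, 18.7 and 24.8 CPM in APP/E4 mice, against 19.5, 22.9 and 25.4 CPM in APP/E3 mice. Of the APP/E4 mice 11 of 14 lay below all APP/E3 mice, and the log2 fold change was -0.27 (adjusted p = 3.08e-05), a call kept in all 13 settings. On the average over backgrounds it was -0.20 (-0.26 to -0.13, adjusted p = 2.37e-07). Without stated strand, reads in bases that *Stx18* shares with genes on the opposite strand cannot be told apart. Of its exonic bases, *Gm42858* overlaps 19.8% and *Nsg1* 12.5%. *Nsg1* was itself -0.26 in APP/E4 against APP/E3 mice.

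*Stx8*, a SNARE of late endosomes, had 12.4, 14.3 and 17.5 CPM in APP/E4 mice, against 15.8, 17.7 and 22.0 CPM in APP/E3 mice, with 9 of 14 below all APP/E3 mice. Its log2 fold change was -0.29 (adjusted p = 0.000476), and on the average over backgrounds -0.22 (adjusted p = 1.14e-05). *Stx6*, a SNARE of the trans-Golgi network, had 85.4, 92.9 and 105 CPM in APP/E4 mice, against 96.5, 105 and 114 CPM in APP/E3 mice. It was called lower in APP/E4 (-0.15, adjusted p = 0.00161) and on the average (-0.09, adjusted p = 0.00214), but TMM scaling, edgeR and DESeq2 ended the call on the average.

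Of the 8 intracellular syntaxins, 5 were called lower on the average and none higher, where 27.8% and 12.6% of all genes were. The lower ones were *Stx18*, *Stx8*, *Stx7*, *Stx6* and *Stx16*, the last of them also a trans-Golgi SNARE. *Stx12* was not called at 0.03, but was called higher with TMM scaling, edgeR, DESeq2 and the length and GC correction. It was then 0.07, 0.07, 0.07 and 0.08 (adjusted p = 0.0340, 0.0328, 0.0279 and 0.00368). The same settings called *Stx12* higher in APP/E4 against APP/E3 mice, at 0.12 to 0.14. *Stx7*, the endosomal partner of *Stx8*, was -0.10 (adjusted p = 0.000156). *Stx16* passed narrowly at -0.07 (adjusted p = 0.0497), and its call was lost in 8 of 12 settings and without any of 55 single mice. Of the 6 R-SNAREs, 3 were called lower on the average and none higher, against the same shares of all genes. *Vamp4*, of the trans-Golgi network, was -0.10 (adjusted p = 0.000157), *Vamp8*, of endosomes, -0.28 (adjusted p = 0.000386) and *Vamp2* -0.07 (adjusted p = 0.0481), the last lost in 8 settings and without any of 48 single mice.

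Of the 5 plasma membrane syntaxins, *Stx1a* was called lower at -0.30 (adjusted p = 0.00216) and *Stx4a* at -0.22 (adjusted p = 0.000286) on the average, where 27.8% of all genes were. *Stx4a*, which serves exocytosis outside the synapse, had 21.0, 36.3 and 39.9 CPM in APP/E4 mice, against 35.5, 46.4 and 58.0 CPM in APP/E3 mice, and 6 of 14 lay below all APP/E3 mice. In that pair it was -0.45 (-0.63 to -0.28, adjusted p = 2.25e-05). Of its exonic bases, 124 overlap a neighbouring gene on the opposite strand. Of the SNAP-25 family, *Snap25* at -0.16 (adjusted p = 0.0205) and *Snap23*, the form found in most cells, at -0.14 (adjusted p = 0.0414) were called lower on the average, and both calls were lost with TMM scaling, edgeR and DESeq2. The *Snap23* call was also lost without any of 24 single mice.

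Synaptotagmins supplied most of the higher calls. *Syt11* had the smallest p of all members on the average, at 0.13 (0.09 to 0.16, adjusted p = 7.46e-08). It had 997, 1111 and 1217 CPM in APP/E4 mice, against 975, 1036 and 1082 CPM in APP/E3 mice, and 12 of 14 APP/E4 mice lay above all APP/E3 mice. The fold in this pair was 1.07. Other synaptotagmins called higher on the average were *Syt14* at 0.26 (adjusted p = 0.00234), *Syt15* at 0.26 (adjusted p = 0.00660) and *Syt4* at 0.11 (adjusted p = 0.0319). *Syt14*, which does not bind calcium, had 4.20, 5.60 and 7.40 CPM in APP/E4 mice, against 2.39, 3.97 and 6.22 CPM in APP/E3 mice.

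On the average 12.6% of all genes were called higher and 27.8% lower. Among the 8 calcium-binding synaptotagmins only *Syt9*, a fast release sensor of some neurons, was called on the average, at 0.32 (adjusted p = 0.00700). It had 10.3, 16.3 and 28.5 CPM in APP/E4 mice, against 8.06, 10.1 and 22.8 CPM in APP/E3 mice, and was 0.57 (adjusted p = 0.00446) in that pair. *Syt10*, known in olfactory neurons for the release of IGF-1, was called higher in the same pair at 0.79 (0.24 to 1.34, adjusted p = 0.0196), with 4.03, 8.19 and 19.8 CPM in APP/E4 against 2.29, 4.98 and 18.2 CPM in APP/E3 mice. *Syt3* was called lower in the same pair at -0.16 (adjusted p = 0.0336), a call lost in 6 settings and without any of 8 mice.

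Several release genes were not called on the average. *Syt1* was 0.04 (-0.04 to 0.12), *Syn1* -0.10 (adjusted p = 0.0774), *Syn2* -0.10 (-0.21 to 0.01), *Syp* -0.06 (adjusted p = 0.100) and *Syt6* 0.34 (adjusted p = 0.102).

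Of the vesicle membrane proteins, *Sv2a*, the binding protein of levetiracetam, was called higher on the average at 0.09 (adjusted p = 0.00860). *Syn3*, the third synapsin, was 0.10 (adjusted p = 0.0384), and 14.1% of its exonic bases overlap *Timp3* on the opposite strand. Its call was lost in 5 settings and without any of 5 mice. Of the 7 syntaxin-binding proteins, 2 were called lower, where 27.8% of all genes were, and *Stxbp4* was called higher, where 12.6% were. Among the lower was *Stxbp2*, known from secretion in non-neuronal cells, at -0.24 (adjusted p = 0.0117), and *Stxbp4* was 0.10 (adjusted p = 0.0493). The *Stxbp4* call was lost without any of 49 mice. *Stxbp5l*, or tomosyn-2, was called higher in APP/E4 against APP/E3 mice at 0.25 (adjusted p = 0.0103). In the same pair *Stxbp3*, whose protein binds that of *Stx4a*, was lower at -0.26 (adjusted p = 0.0226), and the call was lost with edgeR and DESeq2, without the keratin libraries, without those high in *Alb*, and without E3203 or E3333 of APP/E4. *Syt4* at 0.19 (adjusted p = 0.0241) lost its call there without D3639 or D3720 of APP/E3.

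**Figure D3:**
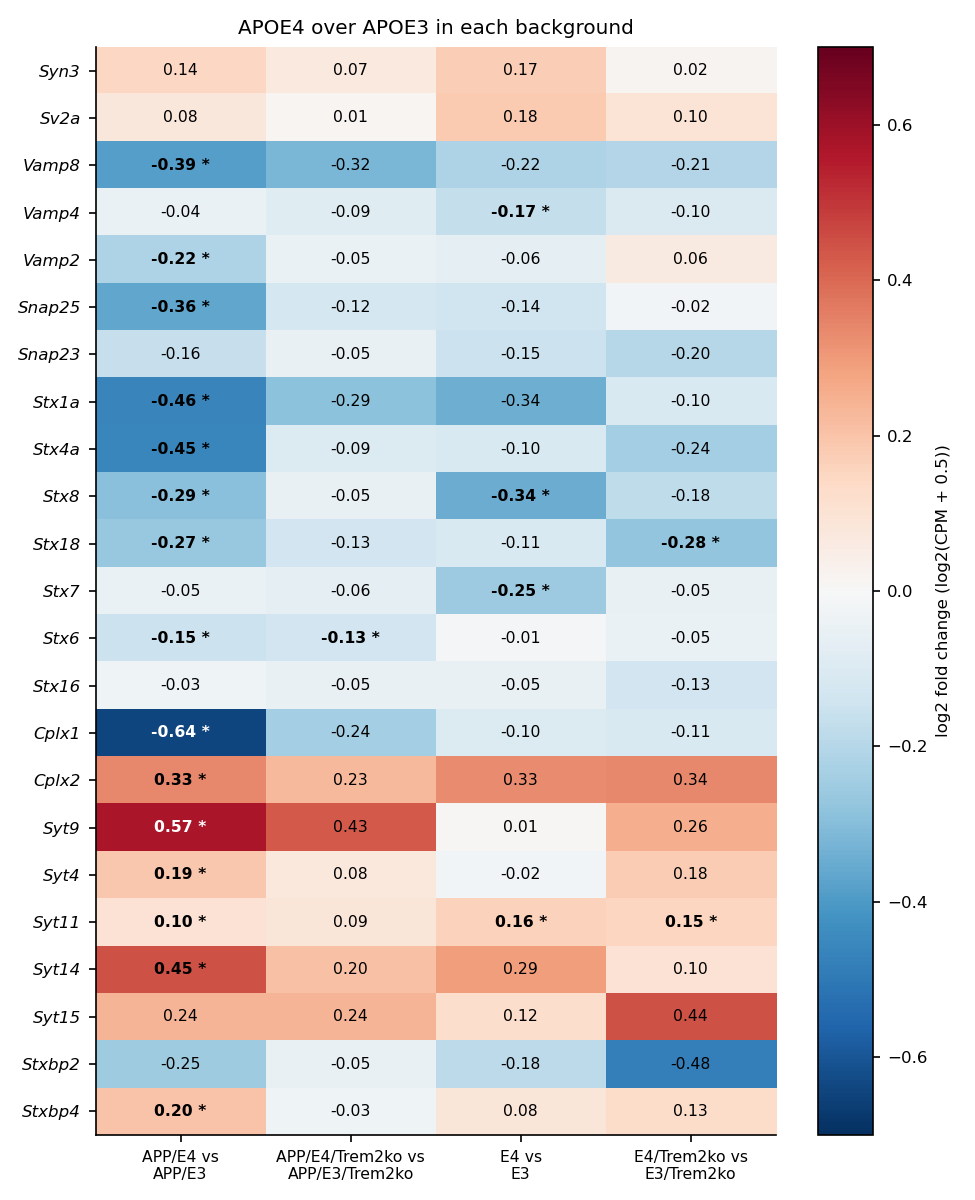
Log2 fold change of APOE4 over APOE3 in each of the 4 backgrounds for 23 members called on the average, with an asterisk where the comparison itself was called. Most calls stand in APP/E4 vs APP/E3, where *Cplx1* is -0.64. The groups of 6 or 8 mice without the APP transgenes hold few, and so does APP/E4/Trem2ko vs APP/E3/Trem2ko with 16 and 14 mice.

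The other backgrounds held fewer calls. In APP/E4/Trem2ko against APP/E3/Trem2ko mice, 2 members were called lower, where 3.02% of all genes were, and none higher, where 1.44% were. *Cplx3*, a complexin of deep-layer neurons and retina, had 5.18, 11.96 and 19.5 CPM in APP/E4/Trem2ko mice, against 6.45, 21.1 and 29.1 CPM in APP/E3/Trem2ko mice. It was -0.64 (-0.998 to -0.285, adjusted p = 0.0244), and *Stx6* was -0.13 (adjusted p = 0.0275), and both calls were lost without the keratin libraries and without those high in *Ttr*. No member was called higher at this threshold, where 4 had an unadjusted p under 0.05, edgeR called 1 and DESeq2 1. For these criteria the shares of all genes are not given here, and the counts are not read as results about the members. Single mice decided the count, which was 0 without D3939 and 5 without D3938 of APP/E3/Trem2ko, 4 without E3738 and 1 without X0152 or E3322 of APP/E4/Trem2ko.

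In E4 against E3 mice, 1 member was called higher, where 1.72% of all genes were, and 3 lower, where 6.01% were. *Stx7* had 87.9, 91.5 and 94.5 CPM in E4 mice, against 98.4, 111 and 114 CPM in E3 mice, so that all 6 E4 mice lay below all 8 E3 mice (-0.25, adjusted p = 0.00238). *Syt11* was 0.16 (adjusted p = 0.0167), *Stx8* -0.34 (adjusted p = 0.0201) and *Vamp4* -0.17 (adjusted p = 0.0357), the last lost with TMM scaling, edgeR and DESeq2. The count was 1 without E3473 and 2 without E3459, both E4, and 0 without the keratin libraries, which leaves 2 E4 mice.

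In E4/Trem2ko against E3/Trem2ko mice, 1 member was called higher, where 1.53% of all genes were, and 1 lower, where 4.68% were. *Stx18* had 15.7, 18.8 and 21.3 CPM in E4/Trem2ko mice, against 19.4, 23.4 and 24.4 CPM in E3/Trem2ko mice, with 5 of 8 below all E3/Trem2ko mice (-0.28, adjusted p = 0.00957). *Syt11* was 0.15 (adjusted p = 0.0194). Without D3893 or D3940 of E3/Trem2ko 1 call was left, and without the keratin libraries, which leaves 1 E4/Trem2ko mouse, there was none.

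*Trem2* deletion was compared within each isoform. In APP/E4/Trem2ko against APP/E4 mice, 6 members were called higher, where 11.3% of all genes were, and none lower, where 2.53% were. *Stx4a* had 33.1, 44.0 and 69.4 CPM in APP/E4/Trem2ko mice, against 21.0, 36.3 and 39.9 CPM in APP/E4 mice, and 11 of 16 lay above every APP/E4 mouse (0.39, adjusted p = 0.00197). *Stx8* was 0.26 (adjusted p = 0.00736), *Stx18* 0.17 (adjusted p = 0.0177), *Stx5a*, the Golgi syntaxin, 0.21 (adjusted p = 0.0294), *Stxbp3* 0.27 (adjusted p = 0.0315) and *Cplx1* 0.29 (adjusted p = 0.0404). *Cplx1* had 413, 624 and 955 CPM in APP/E4/Trem2ko mice, against 441, 515 and 690 CPM in APP/E4 mice. For the direction lower, 4 members had an unadjusted p under 0.05, edgeR called 3 and DESeq2 4. The shares of all genes by these criteria are not given here, so these counts are not read as results about the members.

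These calls depended on the setting. TMM scaling gave 2 higher and 2 lower, where 5.71% and 4.61% of all genes were called, and a fit of the 2 genotypes alone called none. Without the libraries high in *Ttr* 1 was called, and 2 without those high in *Alb*. Without the keratin libraries 5 were called higher and 1 lower, and not all of the 6 calls above were kept. *Snap25* at 0.60 (adjusted p = 0.0115) and *Stx3* at 0.44 (adjusted p = 0.0279) were then called higher. *Cplx2* at -0.54 (adjusted p = 0.0379) was called lower. The count was 3 without E3203 or E3475 of APP/E4. APP/E4 is the group against which both this comparison and that with APP/E3 were made, so they share its 14 mice and are not independent. The *Stx4a* call was lost only in the fit of the 2 genotypes alone (largest adjusted p 0.0508).

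In APP/E3/Trem2ko against APP/E3 mice no member was called by limma, edgeR or DESeq2, and 3 had an unadjusted p under 0.05. Of all genes 0.319% were called and 5.56% had such a p. In E4/Trem2ko against E4 mice none was called by the 3 tools and 2 had an unadjusted p under 0.05, where 0.0994% and 6.47% of all genes did. In E3/Trem2ko against E3 mice limma and edgeR called none, DESeq2 called 2, and 10 had an unadjusted p under 0.05, where 2.92% and 21.3% of all genes did. There *Stx7* was -0.17 (adjusted p = 0.0511) and *Syt17*, also known as the B/K protein, -0.67 (adjusted p = 0.0603). Without D3833 of E3/Trem2ko 4 members were called, with *Syt2* at 1.21, *Vamp1* at 0.67, *Syt17* at -0.83 and *Stx7* at -0.18. Without D3866 of E3, 2 were called, and without any of 21 other mice 1.

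Averaged over the 4 backgrounds, 1 member was called higher in Trem2ko mice, where 2.88% of all genes were, and 1 lower, where 2.91% were. *Stx4a* was higher at 0.19 (0.09 to 0.30, adjusted p = 0.0147) and *Cplx2* lower at -0.21 (-0.33 to -0.09, adjusted p = 0.0235). The striatal markers moved with *Cplx2*, with 7 of 12 called lower in Trem2ko mice and none higher. With the striatal score in the model *Cplx2* was -0.08 (adjusted p = 0.434), and neither member was called. In APP/E4/Trem2ko against APP/E4 mice alone, *Cplx2* was called lower with the score, at -0.22 (adjusted p = 0.0215), and not without it (adjusted p = 0.120). The part of striatal tissue in the values of *Cplx2* was not tested apart from this. On the average, the count of 2 was 1 without E3459 or E3855 of E4, and 4 without D3866 of E3 or D3833 of E3/Trem2ko.

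The APP transgenes were compared in the same way, and no member was called in any of these comparisons by limma or edgeR. In APP/E3 against E3 mice, 3 had an unadjusted p under 0.05, where 0.0213% of all genes were called and 5.99% had such a p. In APP/E4 against E4 mice, 7 did, where the shares of all genes were 0.0142% and 9.29%. In APP/E3/Trem2ko against E3/Trem2ko mice, 7 did, where they were 0.149% and 16.7%, and in APP/E4/Trem2ko against E4/Trem2ko mice, 10 did, where they were 0.0781% and 18.5%. DESeq2 called none in these 4 pairs. On the average over backgrounds, 11 had an unadjusted p under 0.05 and DESeq2 called 1, *Stx7*, where 1.68% of all genes were called and 16.9% had such a p. *Syt7*, the calcium sensor of asynchronous release, was -0.10 (-0.15 to -0.04, adjusted p = 0.0546) and *Stx3*, a plasma membrane syntaxin, -0.16 (-0.26 to -0.06, adjusted p = 0.0727). Leaving out 1 mouse gave 1 or 2 calls for 22 of the 88 mice, and 2 for 5 of them (E3177 or E3830 of APP/E4, D3722 of E3, D3941 of E3/Trem2ko or E3445 of E4/Trem2ko).

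For the average APP effect, the 95% intervals bound the members of the isoform comparison as follows. *Cplx1* was -0.05 (-0.17 to 0.08), *Cplx2* 0.04 (-0.08 to 0.16), *Snap25* 0.05 (-0.07 to 0.16) and *Syt11* -0.01 (-0.05 to 0.03) on the log2 scale.

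Whether the isoform difference itself varied between backgrounds was tested by interaction. For APOE by *Trem2* in APP mice no member was called by limma, edgeR or DESeq2 and 5 had an unadjusted p under 0.05, where 0.369% of all genes were called and 15.5% had such a p. *Stx4a* came nearest at 0.36 (0.12 to 0.60, adjusted p = 0.121), and *Cplx1* was 0.40 (0.12 to 0.69, adjusted p = 0.145). Without the keratin libraries *Stx4a* at 0.56 (adjusted p = 0.0311) and *Snap25* at 0.63 (adjusted p = 0.0430) were called. For APOE by *Trem2* in mice without the transgenes none was called and 2 had an unadjusted p under 0.05, where the shares of all genes were 0.0142% and 6.77%. For APP by APOE with wild-type *Trem2* none was called and 6 had an unadjusted p under 0.05, where they were 0.0% and 6.08%. In that test *Cplx1* was -0.55 (-0.90 to -0.19, adjusted p = 0.763), and *Stx7* had the smallest p at 0.20 (adjusted p = 0.759). The larger number of calls in APP/E4 against APP/E3 mice is therefore not shown to be particular to APP mice.

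Members also varied with the striatal score within genotypes. In a model with genotype, sex and the striatal score, 8 members rose with the score, where 22.2% of all genes did, and 17 fell, where 16.7% did, and the members' median slope was -0.01 against 0.01 over all genes. TMM scaling and edgeR gave 8 and 23, and DESeq2 8 and 24, and the shares of all genes in these settings are not given here. *Sv2c*, the SV2 form of the basal ganglia, rose by 0.62 per unit of score in log2 (0.53 to 0.71, adjusted p = 2.11e-20), and *Syt6* by 0.48 (adjusted p = 5.31e-15). *Sv2c* reached 142 CPM in the highest mouse and 9.75 CPM in the lowest. *Cplx2* rose by 0.16 (adjusted p = 3.88e-13) and *Syt9* by 0.21 (adjusted p = 1.00e-07).

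The falling members included *Syt16* at -0.17 (adjusted p = 2.93e-18), *Stx1a* at -0.22 (adjusted p = 7.85e-13), *Syt13* at -0.11 (adjusted p = 1.49e-11), *Cplx3* at -0.26 (adjusted p = 5.05e-09) and *Snap25* at -0.12 (adjusted p = 1.69e-07). None of the 8 intracellular syntaxins was called for the score by limma, and *Stx12* came nearest (adjusted p = 0.0505). With edgeR, DESeq2, TMM scaling and the length and GC correction, *Stx12* and *Stx16* were called lower with the score, at -0.04 and -0.03 with edgeR (adjusted p = 0.00574 and 0.0288). With the score in the model, the APOE average was 0.26 for *Cplx2*, -0.26 for *Cplx1*, -0.13 for *Snap25*, -0.20 for *Stx18* and 0.13 for *Syt11*, all still called.

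**Figure D4:**
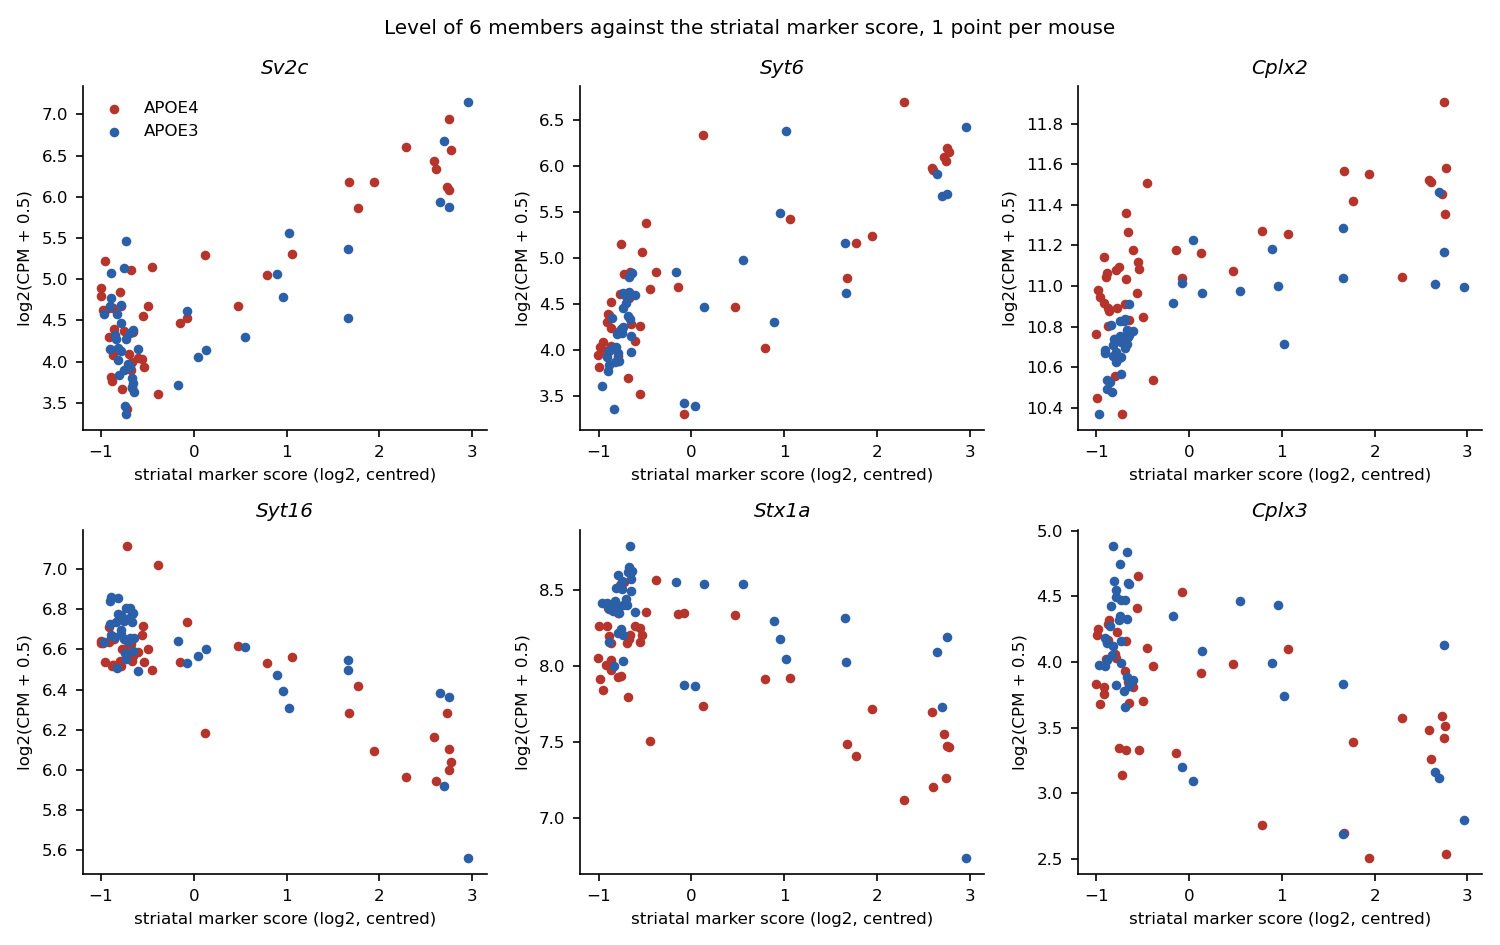
Log2(CPM + 0.5) of *Sv2c*, *Syt6*, *Cplx2*, *Syt16*, *Stx1a* and *Cplx3* against the striatal marker score in 88 mice. *Sv2c* and *Syt6* rise with the score by 0.62 and 0.48 per unit, *Syt16*, *Stx1a* and *Cplx3* fall, and the 18 mice above a score of 1 form the right of each panel.

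Other presynaptic genes were counted from a list of 70, all of them measured. On the APOE average 15 were called higher and 11 lower, where 12.6% and 27.8% of all genes were, with a median of 0.02. In APP/E4 against APP/E3 mice 15 were called higher and 13 lower, where 10.9% and 22.7% of all genes were, with a median of 0.04. By group, against the same shares of all genes, 5 of 23 active zone and priming genes were higher and 1 lower on the average. Of 22 endocytosis genes 5 were higher and 6 lower, and of 8 SNARE disassembly genes 2 were higher and 3 lower. The smallest p belonged to *Ap2s1*, the small subunit of the clathrin adaptor AP-2, at -0.41 (adjusted p = 1.81e-09), while its large subunit *Ap2b1* was 0.20 (adjusted p = 8.32e-08). *Picalm*, a clathrin assembly protein related to that of *Snap91*, was 0.25 (adjusted p = 2.60e-09). *Snap91* itself was not called (0.03).

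The isoform difference also ran with gene length. Over the members, the Spearman correlation of the log2 fold change with exonic length was 0.30 in APP/E4 against APP/E3 mice and 0.34 on the average, against 0.47 and 0.40 over 13935 genes. For GC content it was -0.30 and -0.21 among members, against -0.29 and -0.22 over those genes. These are descriptions across genes, which are not independent. *Cplx1*, with 2189 exonic bases, is among the shorter members and *Cplx2* has 4928. After a length and GC correction *Cplx1*, *Cplx2*, *Syt11* and *Stx18* kept their calls on the average, while *Stx1a* and *Vamp2* lost theirs.

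**Figure D5:**
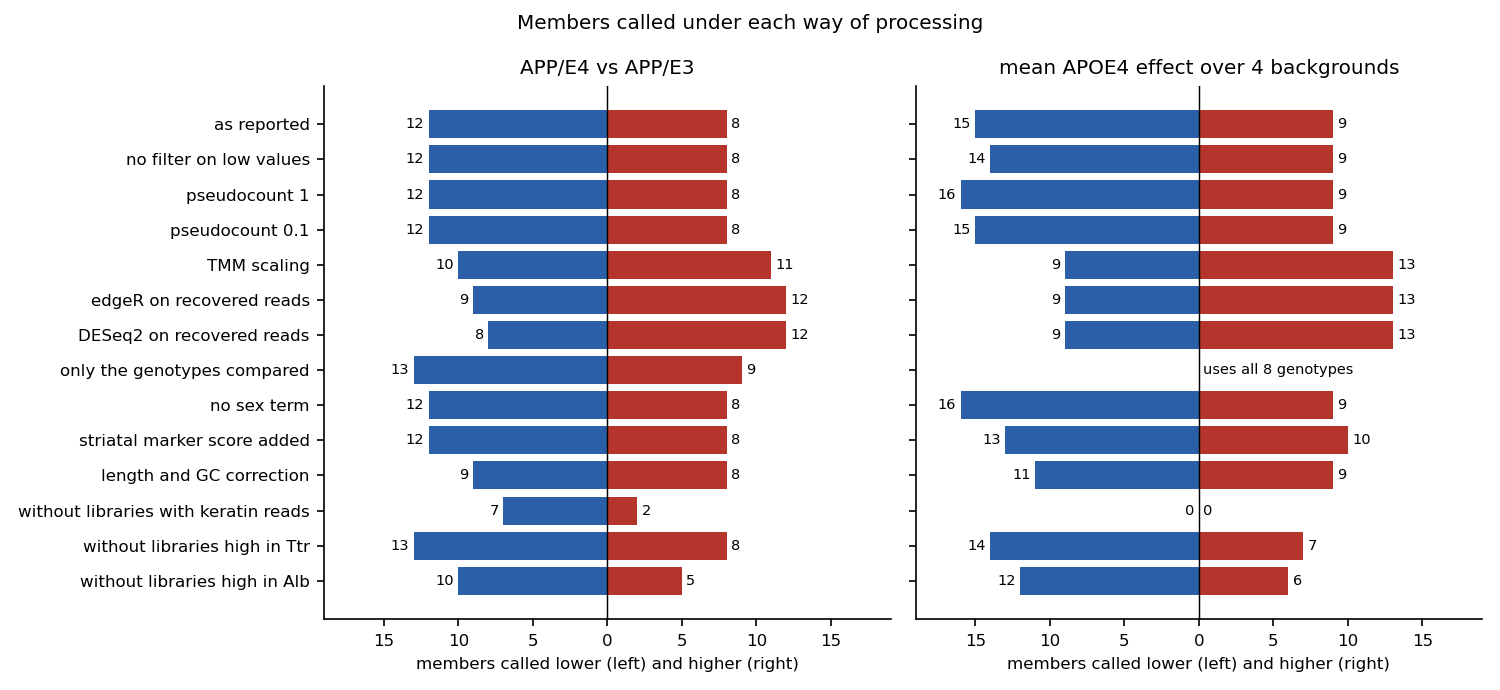
Number of the 57 members called lower (left) and higher (right) in APP/E4 vs APP/E3 and on the APOE average under each setting. Without the keratin libraries the counts fall to 7 lower and 2 higher in APP/E4 vs APP/E3 and to 0 on the average.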

How the data were processed

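Reads had been mapped by the authors to mm10, assigned to genes by featureCounts and scaled to CPM with edgeR, per the labels and the study's methods. The deposited table holds CPM for 14497 entries, of which 46 were repeats and were removed. The library strand and the gene annotation were not given in the sources used here. A batch named in the study is not in the labels and could not be modelled. The growth text of the labels names another amyloid line (APP23) than their other fields, which were followed. Of the 57 members, 2 are counted but not reported here by name or drawn singly, and neither is a further transgene of the APP mice. Every value was a whole number of reads within 0.01 read in each of the 88 libraries, although a stricter check on low values shows the step in 23 columns only.

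After a filter on the mean (1 CPM or more), log2(CPM + 0.5) of 14086 genes was fitted with limma 3.58.1 (trend and robust empirical Bayes, R 4.3.3) on the 8 genotypes and sex over 88 mice, with 18 contrasts and the slope on the striatal score, Benjamini-Hochberg adjustment within each of the 19 comparisons and calls at adjusted p below 0.05. Intervals are 95% with 79 residual degrees of freedom, and fold changes on this scale understate those of low genes. The 14 alternatives included edgeR 4.0.16 and DESeq2 1.42.0 on the recovered reads. The main limma fit was tested, for some pairwise comparisons, on simulated counts drawn for each gene independently. These counts held no keratin, striatal or length structure. The averages, the interactions, the slope, edgeR and DESeq2 were not tested in this way. The rule for named genes took 12 release genes whether called or not, although their values are not given here for every comparison. It also took up to 10 called members per direction in each comparison, the 2 with the smallest p in each role and the 6 with the smallest p for the slope. The member with the smallest p in each interaction and up to 6 other presynaptic genes were added. The members and lists were chosen with earlier results of these data known. P-values measure the spread between these mice.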

Additional observations from a re-analysis of the deposited data

Results flagged for a closer look

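In the 4 genotypes without the APP transgenes, which hold 6 or 8 mice each, the highest or the lowest mouse stood apart from the others in 25 of 192 tests by Dixon's criterion, where chance gives about 1 in 20. E3/Trem2ko mouse D3833 accounts for 11 of them. In this mouse *Cplx1* was 418.767, *Cplx3* 8.03738, *Stx18* 19.4465, *Stx6* 75.1985 and *Vamp1* 75.2769 CPM, each the lowest of its group. *Cplx2* at 2393.28, *Syn2* at 924.2, *Syt7* at 545.111, *Syt10* at 13.8988, *Syt17* at 59.359 and *Syt9* at 20.5639 CPM were each the highest. Its striatal score of 0.04 was the highest of the group.

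In E3/Trem2ko mouse D3893, *Stxbp3* was 11.5475 and *Vamp8* 8.70041 CPM. In E3 mouse D3811, *Stx4a* was 32.7963 and *Syt10* 24.7513 CPM, and in E3 mouse X0158 *Syn1* was 1081.03 CPM. In E4 mouse E3357, *Snap47* was 372.951 and *Vamp2* 1529.26 CPM, in E3855 *Stx2* was 15.3016 CPM and in E3473 *Syn3* was 99.8625 CPM. In E4/Trem2ko mouse E3261, *Syt6* was 33.0213 and *Syt9* 16.5216 CPM, in E3740 *Syn3* was 74.2594, in E3823 *Syt1* 1745.78 and in E3446 *Syt10* 10.4901 CPM.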

How the results depend on the processing

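Of the 280 counts of called members under an alternative, 245 stayed within 1.5 times the main count. A count of 0 where the main count was 0 is among these, and 11 of the 19 comparisons had a main count of 0. The counts are totals over both directions, so they miss changes in the split. For the APOE average this went from 9 higher and 15 lower to 13 and 9 with TMM scaling. No called member changed sign under any alternative. Without the keratin libraries, the count was 9 in APP/E4 vs APP/E3, 1 in APP/E4/Trem2ko vs APP/E3/Trem2ko, 0 in E4 vs E3, in E4/Trem2ko vs E3/Trem2ko, for the APOE average and for the Trem2ko average, and 2 for the APOE by Trem2 interaction in APP mice. In APP/E4/Trem2ko vs APP/E3/Trem2ko it was 1 with TMM scaling, 4 with DESeq2, 1 with only the genotypes compared, 1 with the length and GC correction, 0 without libraries high in *Ttr* and 0 to 5 leaving out each mouse. With only the genotypes compared it was 1 in E4 vs E3 and 0 in APP/E4/Trem2ko vs APP/E4. APP/E4/Trem2ko vs APP/E4 gave 1 without libraries high in *Ttr*, 2 without those high in *Alb* and 3 to 9 leaving out each mouse. Leaving out each mouse gave 1 to 4 in E4 vs E3, 1 to 3 in E4/Trem2ko vs E3/Trem2ko, 0 to 4 in E3/Trem2ko vs E3, 1 to 4 for the Trem2ko average and 0 to 2 for the APP average. E3/Trem2ko vs E3 gave 2 with DESeq2 and 2 without libraries high in *Ttr*. The Trem2ko average gave 5 with DESeq2, 0 with the striatal score, 4 with the length and GC correction and 0 without libraries high in *Ttr*. The APP average gave 1 with DESeq2, 1 with the striatal score and 2 without libraries high in *Alb*. E4/Trem2ko vs E3/Trem2ko gave 4 with the striatal score. The causes were not tested, beyond the smaller number of mice in fits that leave libraries out. A fit of only the genotypes compared could not be made for the averages or the slope. No paired analysis was possible because the labels number single mice and no number is shared between genotypes.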
